A study of Mus musculus with 4 samples.

Results

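mt-Co1 and mt-Cytb are mRNAs made inside mitochondria from the mitochondrial genome. The first encodes the catalytic core subunit of complex IV (cytochrome c oxidase) of the respiratory chain, the second the cytochrome b subunit of complex III. Their sites of contact with NAT10 were read from a single list of eCLIP peaks of 32D cells, taking every peak that the list assigns to either gene. This gave 23 of the 4172 distinct peaks of the list, 16 on mt-Co1 (ENSMUSG00000064351) and 7 on mt-Cytb (ENSMUSG00000064370), so 2 of the 1629 gene identifiers with a peak. The genes were chosen by their peaks in this same list, which are many and strong. Their peak counts, folds and p-values are therefore a description, with no test.

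NAT10 is the enzyme that writes N4-acetylcytidine on RNA, and the series looked for the mRNAs it touches in order to study its role in haematopoietic stem cells. In eCLIP, UV light fixes proteins to RNA, the protein is pulled down with an antibody, and the RNA fragments left on it are sequenced beside an input that skips the pull-down. There were 4 libraries from 32D cells, an interleukin-3-dependent mouse bone marrow line labelled as lymphoblastocytes. Of these, 2 were immunoprecipitates with NAT10 antibody (IP) and 2 were inputs. All were of WT genotype, grown with mouse IL-3 and UV-crosslinked, and whether the libraries of each kind were made from different cultures is not labelled. Each peak has 1 log2 fold of IP over input and 1 -log10 p, both the authors' values over all libraries, so no spread between replicates can be given. The labels name no pull-down with another antibody and no cells without NAT10, so the folds compare IP with input alone.

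Mammalian mitochondria copy their genome into long transcripts, from which the mRNAs are released by cutting out the tRNAs that lie between most of them. The mRNAs carry little or no untranslated sequence and are read by the mitochondrion's own ribosomes. Complexes III and IV hand electrons on to oxygen, and each joins subunits made in the mitochondrion with subunits made in the cytosol from nuclear genes. In the gene order of the RefSeq table for GRCm38.p6, where they are called COX1 and CYTB, mt-Co1 lies between the tRNA genes TrnY and TrnS1, and mt-Cytb between TrnE and TrnT. That table is of another build than the peaks (GRCm39). It was used here for names, gene order and gene lengths, and for no position. No sequence of either mRNA was used here.

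NAT10 peaks lay on the plus strand of both mRNAs, and all 23 were in the authors' exon class. The whole peak set of mt-Co1 had a median log2 fold of 7.11 (137.8-fold, range 6.44 to 8.52), and that of mt-Cytb a median of 7.21 (148.0-fold, range 6.81 to 7.62). The medians differed by -0.10 (mt-Co1 minus mt-Cytb). The spread among peaks of 1 mRNA was wider than that, and the 2 sets overlapped: 9 of the 16 mt-Co1 peaks fell within the mt-Cytb range, 2 lay above it and 5 below. All 23 peaks had a log2 fold above the median of the whole list, 4.60, which 49.2% of all peaks exceed. A log2 fold of 7 or more was reached by 17 of them, 11 on mt-Co1 and 6 on mt-Cytb, against 5.35% of all peaks. On the mitochondrial mRNAs of complex I, another enzyme of the respiratory chain, 13 of 38 peaks (34.2%) reached it. All 9 peaks of mt-Nd2 (lowest 7.68) were among these, and the rest were on mt-Nd1, mt-Nd4 and mt-Nd5. The cut of 7 was chosen after seeing the data. By fold the 23 peaks of mt-Co1 and mt-Cytb ranked from 57 to 385 among the 4172 peaks.

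The mt-Co1 signal came in pieces. Its 16 peaks were between 13 and 63 nt wide (median 34 nt) and many began on the base after the previous one ended. Joining peaks that touch left 6 regions. Together they covered 616 nt, which is 59.1% of the 1042 nt from the first to the last listed base (positions 5398 to 6439 of the mitochondrial genome) and 39.9% of the 1545 nt of COX1 in the RefSeq table. The gaps between successive regions were 18, 101, 184, 12 and 111 nt. A gap holds no listed peak and is not shown to be unbound, since the list starts at a log2 fold of 3.00.

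By listed fold, the strongest stretch of mt-Co1 was its most upstream one, positions 5398 to 5545, with 4 peaks end to end. Their log2 folds from the upstream end were 8.52 (49 nt), 7.55 (18 nt), 8.06 (58 nt) and 7.19 (23 nt). The first of these, positions 5398 to 5446, was the strongest peak of either gene at 366.9-fold, and the one at 5465 to 5522 had the highest -log10 p of the gene, 152.43. The width-weighted mean log2 fold of the region was 8.02, the highest of the 6. This place rests on the peaks of 8.52, 7.55 and 8.06, whose folds fit the smallest input count, 1 read in each library, as described with the depth. Without such peaks the region keeps the 7.19 alone, below the 7.61 and 7.22 of the region at 6003 to 6155.

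Lower folds followed directly downstream. The region at positions 5564 to 5680 held peaks of 6.53 (61 nt) and 6.67 (56 nt), and that at 5782 to 5818 held peaks of 6.44 (13 nt) and 6.63 (24 nt). These 4 peaks had a median log2 fold of 6.58, and none reached 7. The narrow peak at 5782 to 5794 was the weakest of all 23, both by fold and by -log10 p (59.6).

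After the longest gap, 7 of 8 peaks had a log2 fold of 7 or more. The region at positions 6003 to 6155 was the widest of the gene (153 nt), with 4 peaks of 7.61 (63 nt), 7.22 (35 nt), 7.06 (22 nt) and 7.14 (33 nt). Only 12 nt further on, the region at 6168 to 6246 held peaks of 6.57 (16 nt), within the range of the low regions upstream, and 7.07 (63 nt). The last region, 6358 to 6439, held peaks of 7.04 (62 nt) and 7.38 (20 nt). Over these last 3 regions the median log2 fold of the 8 peaks was 7.11, against 7.80 for the 4 peaks of the first region. As 1 value per peak is listed, these differences along mt-Co1 have no replicate check.

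**Figure D1:**
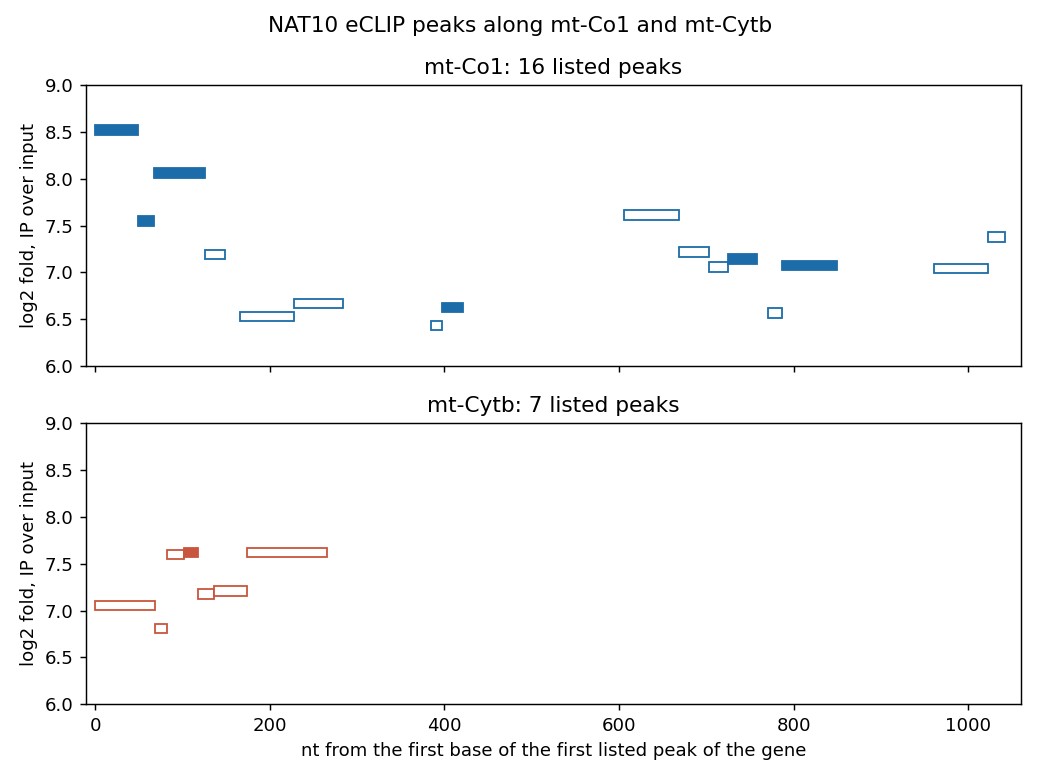
Peaks of mt-Co1 (top) and mt-Cytb (bottom) drawn to scale along the mRNA, with distance in nt from the first listed base of each gene on the horizontal axis and log2 fold of IP over input on the vertical axis. Each box is 1 peak, as long as the peak is wide and centred on its log2 fold; filled boxes are the 6 mt-Co1 peaks and 1 mt-Cytb peak whose fold fits 1 input read in each library. The mt-Co1 peaks form 6 separate regions over 1042 nt, and the mt-Cytb peaks form 1 block of 265 nt.

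The mt-Cytb signal was a single block. Its 7 peaks followed each other without a gap from position 14973 to 15237, 265 nt in all, or 23.2% of the 1144 nt of CYTB in the RefSeq table. From the upstream end, the log2 folds were 7.06 (68 nt), 6.81 (14 nt), 7.60 (19 nt), 7.62 (16 nt), 7.18 (19 nt), 7.21 (37 nt) and 7.62 (92 nt). The weakest peak was the 14 nt one at 15041 to 15054. The 3 highest folds lay at 15055 to 15089, inside the block, and at its downstream end, 15146 to 15237. The width-weighted mean over the block was 7.34, the same to 2 decimals as in the mt-Co1 region at 6003 to 6155.

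Where the peaks lie within each mRNA could be bounded from the gene lengths but not fixed, as no gene position of the peaks' build was used here. The mt-Co1 peaks span 67.4% of the gene's length, which leaves 503 nt to be shared by its ends. The first listed base is then no further than base 504 of the gene, and the last one no nearer to the start than base 1042. The mt-Cytb block leaves 879 nt to be shared. By the length of mt-Cytb alone, the first base of the block may be anywhere from base 1 to base 880. This range makes no use of neighbouring genes. Of the 1504 nt between the last mt-Nd5 peak and the block, mt-Nd5 can hold at most 213 nt, and mt-Nd6 is 519 nt long. The rest of those 1504 nt is left to TrnE, any spacer and mt-Cytb upstream of the block. A block at base 1 would need TrnE and spacer to fill all of that rest. Otherwise the block starts well inside mt-Cytb. The length of TrnE was not used, so the exact place was not settled here.

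The -log10 p of the peaks went from 59.6 to 152.43 on mt-Co1 (median 93.55) and from 87.21 to 208.42 on mt-Cytb (median 109.19). All 23 were at 10 or more, as were 26.6% of all peaks, and the median over the list was 5.68. Wider peaks tended to have the higher value. On mt-Co1 the 9 peaks of 30 nt or more had a median of 106.04 and the 7 narrower ones 77.22. On mt-Cytb these medians were 169.10 over 3 peaks and 106.08 over 4. The highest value belonged to the widest peak, the 92 nt at the downstream end of mt-Cytb. Fold did not follow the same order: the strongest mt-Co1 peak by fold stood at 86.79 and ranked 117 by p among all peaks, below 2 others of its own region.

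**Figure D2:**
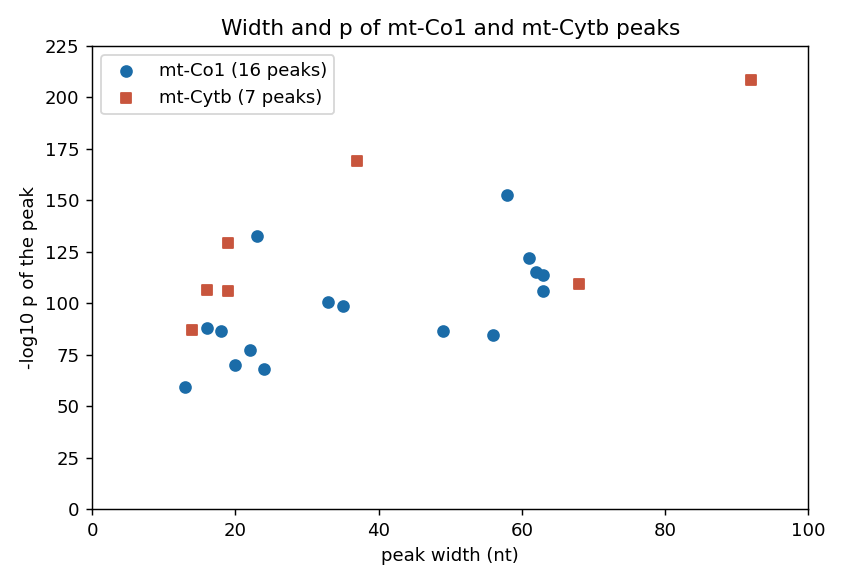
Width in nt (horizontal axis) against the authors' -log10 p (vertical axis) for each of the 16 mt-Co1 peaks (circles) and 7 mt-Cytb peaks (squares). The widest peak, 92 nt on mt-Cytb, has the highest value, 208.42, and the narrowest, 13 nt on mt-Co1, the lowest, 59.6.

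The depth behind the folds could be traced in part. Squared linear folds of 82.6% of all peaks were whole multiples, within 0.001, of 1 common unit. Such multiples arise when a log2 fold is the mean of 2 log2 ratios of read counts with 1 input read in each library. They also arise where larger input counts cancel against the IP counts. A peak said here to fit 1 input read may therefore have had more, and the shares are upper limits. On the 2 mitochondrial mRNAs whole multiples were found for 6 of 16 mt-Co1 peaks and 1 of 7 mt-Cytb peaks, 30.4% together. The other 16 were exact fractions with denominators from 2 to 32, the least that the product of both input counts can be. Their folds therefore rest on more than 1 input read in at least 1 library. Whether the 1 in the input stands for a read or for an added count is not known here.

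On the same reading the fractions give the least number of IP reads under each peak. As a geometric mean per IP library it ran from 56.75 to 302.9 reads on mt-Co1 and from 113.1 to 332.4 on mt-Cytb. The median was 153.5 over the 23 peaks and 15.3 over all peaks whose fold could be written as such a fraction (denominators up to 64). For the complex I mRNAs of the mitochondrion the median of this lower limit was 171.9 reads. That leaves out 3 of their 38 peaks, which fit no such fraction. As lower limits, these medians do not show whether the true depths were alike. Of the 38 complex I peaks, 9 (23.7%) fit 1 input read. On the input side the counts can be minimal. In the first mt-Co1 region 3 of 4 peaks fit 1 input read, those of 8.52, 7.55 and 8.06. With 2 input reads in each library instead, the same IP reads at 5398 to 5446 would give a log2 fold of 7.52 in place of 8.52. Without the peaks that fit 1 input read, the highest log2 folds were 7.61 on mt-Co1, now in the region at 6003 to 6155, and 7.62 on mt-Cytb.

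Peaks were listed for 6 of the 13 mitochondrial mRNAs, and mt-Co1 had the most. The others were mRNAs of complex I, the first enzyme of the chain. Their median log2 folds were 8.66 for mt-Nd2 (9 peaks), 6.84 for mt-Nd1 (7), 6.68 for mt-Nd4 (7) and 6.37 for mt-Nd5 (15). By median fold mt-Cytb and mt-Co1 thus followed mt-Nd2 and stood above the other 3. The range of mt-Co1 overlapped that of each complex I mRNA, and so did that of mt-Cytb except for mt-Nd2, whose weakest peak was at 7.68. Of the other mitochondrial genes of complex IV, mt-Co2 and mt-Co3 had no listed peak. Between the last mt-Co1 peak and the next peak, on mt-Nd4, lay 4591 nt without one. In the gene order this stretch holds mt-Co2, mt-Atp8, mt-Atp6, mt-Co3, mt-Nd3 and mt-Nd4l. Whether reads shared with nuclear copies of mitochondrial sequence were kept is not known here. The mRNAs without a listed peak are therefore not shown to be unbound. Upstream, 608 nt separated mt-Co1 from the last mt-Nd2 peak, and 1504 nt separated mt-Cytb from the last mt-Nd5 peak, with mt-Nd6 between them. No peak followed mt-Cytb.

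Cover and p set the 6 mRNAs side by side as follows. mt-Co1 had the most covered bases, 616 nt, and mt-Cytb the fewest, 265 nt; the complex I mRNAs ranged from 319 nt (mt-Nd1) to 526 nt (mt-Nd5). As a share of gene length, mt-Co1 at 39.9% stood next to mt-Nd2 at 43.1%, while mt-Cytb at 23.2% stood below mt-Nd5 at 28.8%. No peak of mt-Co1 or mt-Cytb reached the ceiling of the p column, 400, where 0.815% of all peaks stand. Of the 38 complex I peaks 19 did, 13 on mt-Nd5 and 6 on mt-Nd4. The sources used here do not say how reads shared with nuclear copies of mitochondrial sequence were treated. Their part in these values, and in the stretches without a listed peak, was not tested.

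**Figure D3:**
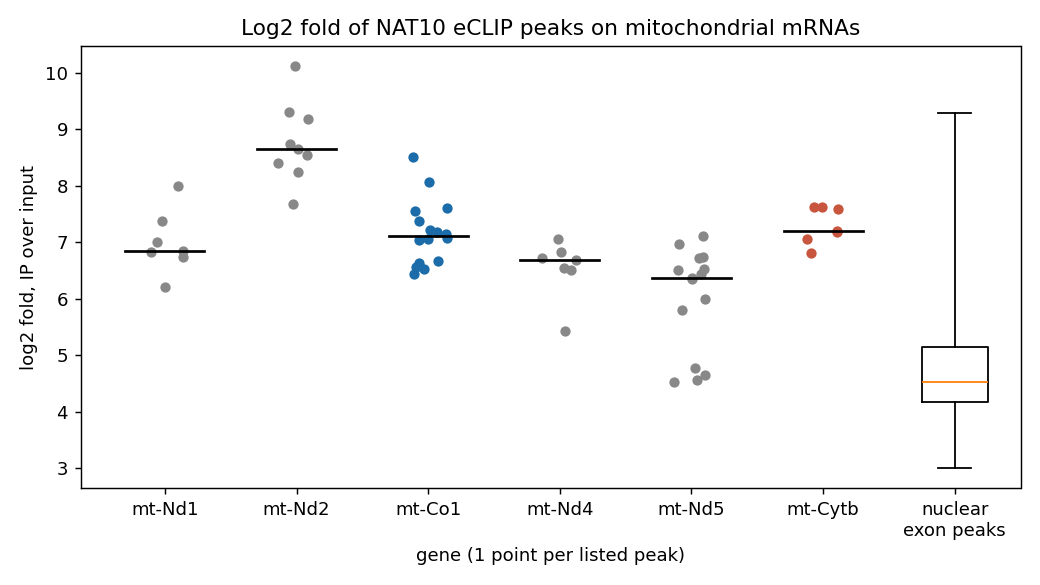
Log2 fold of IP over input (vertical axis) for each listed peak of the 6 mitochondrial mRNAs, in genome order (1 point per peak, black bar at the median; mt-Co1 blue, mt-Cytb red), beside a box plot of the 1471 nuclear exon peaks (box at the quartiles, whiskers to the extremes). The mt-Co1 peaks lie between 6.44 and 8.52 and the mt-Cytb peaks between 6.81 and 7.62, while the nuclear exon peaks have a median of 4.53.

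Partners of the 2 subunits made from nuclear genes had peaks in some cases, each lower in fold than the weakest peak of mt-Co1 or mt-Cytb. Of 10 genes for complex III subunits and cytochrome c, 1 had a peak (10%), Uqcrq, a small subunit of complex III (log2 fold 4.18, exon). Of 16 genes listed for complex IV, 4 had one (25%). Cox7b reached 4.80 (exon), Cox7c 4.79 (5' UTR), Ndufa4 4.57 (5' UTR) and Cox6a1 3.92 (exon), all genes of small subunits, and each of these was below the lowest mt-Co1 peak, 6.44. For comparison, 7.36% of RefSeq protein-coding genes had a peak. Among 25 genes for the assembly of both complexes, 2 had a peak (8%), near that share. Cox15, which makes haem a for mt-Co1's protein, had 1 peak (3.97, 3' UTR) and Coa5 had 1 (4.38, 3' UTR). Of 25 genes that make, process, stabilise or translate mitochondrial mRNA, 1 had a peak, Lrpprc. This is 3.85% of the 26 names listed, no higher than the 7.36% over all protein-coding genes. Lrpprc protects mitochondrial mRNAs from decay, and its peak lay in the 3' UTR at chromosome 17, 85012688 to 85012823, at a log2 fold of 6.08 (-log10 p 15.47).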

How the data were processed

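The deposited peak list gives 1 row per peak and gene, with position, strand, class, p and fold, and no value per library. The fold column was read as log2 fold, deposited by the authors, of IP over input, because its values form steps of read counts on that scale. The p column, per the file headers a p-value, holds values from 3.07 to 400 and was read as -log10 p of the authors. Per the submitters' processing notes the genome build was GRCm39. Aligner, peak caller, cut-offs and how replicates were joined: not given in the sources used here. Repeated rows of a peak were counted once (4206 rows, 4172 peaks). Positions count from 1.

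With pandas 2.3.3 and numpy 2.4.6, peaks were joined where they touch, and squared folds were matched to fractions with denominators up to 64 (tolerance 0.001). Joining and matching were checked on simulated data. The simulated IP counts were lower than those of the member peaks. The check scored recovery of the reduced fraction, so it does not show that a whole multiple means 1 input read. No test was run, since peaks of 1 mRNA are not replicates. The planned comparison of libraries could not be run on this list. The named genes are the members, the other mitochondrial mRNAs and every listed partner gene with a peak. Members and lists were chosen with earlier results of these data known. COX1 and CYTB were paired with mt-Co1 and mt-Cytb by hand. The 26 names listed for mitochondrial mRNA expression stand for 25 genes, as Fastkd4 is another name of Tbrg4. Of these 26 names, 25 were matched to the RefSeq table.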

Additional observations from a re-analysis of the deposited data

How the results depend on the processing

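Counting every peak with a log2 fold above the list median, or with a -log10 p of 10 or more, changed no count, covered length or median of either gene, since all members pass both. With a log2 fold of 7 or more, chosen after seeing the data, mt-Co1 kept 11 peaks (446 nt) and mt-Cytb 6 (251 nt). Joining touching peaks turned 16 mt-Co1 peaks into 6 and 7 mt-Cytb peaks into 1; joining over gaps of up to 50 nt gave 4 and 1. The median log2 fold of mt-Co1 became 7.24 as a mean weighted by width, 7.22 over joined regions at their strongest peak and 7.05 without peaks that fit 1 input read (chosen after seeing the data). For mt-Cytb these values were 7.34, 7.62 and 7.19. The difference, mt-Co1 minus mt-Cytb, kept its sign in each (-0.10, -0.40 and -0.14), but over joined regions it sets 6 values against 1. No paired analysis was possible because the list holds 1 value per peak and none per library; for the same reason leaving out a replicate, other normalizations and count filters were not run. Library depth limits the folds most where the input count is minimal. Peaks below a log2 fold of 3.00 or a -log10 p of 3.07 cannot be seen.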

Other observations

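The p and the fold of the mitochondrial peaks were ordered differently between mRNAs. An mt-Nd5 peak of 8 nt, at positions 12011 to 12018, stood at the -log10 p ceiling of 400 with a log2 fold of 6.74. The widest mt-Cytb peak, 92 nt with a log2 fold of 7.62, had a -log10 p of 208.42. The strongest mt-Co1 peak, 49 nt with a log2 fold of 8.52, had 86.79. The mt-Nd5 peak was chosen after its values were seen. No value per library was used here, so the read counts behind this order are known only as lower limits.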
